A study of Homo sapiens with 6 samples.

Results

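The APOBEC3 genes are a human family of cytidine deaminases encoded side by side on chromosome 22. The members are the rows of the deposited gene table named APOBEC3A, APOBEC3B, APOBEC3C, APOBEC3D, APOBEC3F, APOBEC3G and APOBEC3H, 7 of the 58302 genes listed. They were chosen by name, and all 7 were found once. RNA was sequenced from PC-3, an established human prostate cancer line taken from a bone metastasis. Cells of the Bhlhe22 group were given a lentivirus for overexpression of Bhlhe22, a transcription factor of the basic helix-loop-helix class, and those of the Vector group a blank lentivirus. Each group had 3 libraries. The labels give no promoter for the transgene, do not say whether the cells were a clone or a pool, and name no separate cultures behind the replicates. P-values therefore cover only the spread from library to library, possibly a technical one.

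APOBEC3 enzymes remove the amino group of cytosine in single-stranded DNA, which leaves uracil, and so act against retroviruses and retrotransposons. They are best known from lymphoid and myeloid cells. APOBEC3A and APOBEC3B are also studied as sources of cytosine mutations in tumour genomes, and APOBEC3D, APOBEC3F, APOBEC3G and APOBEC3H as the proteins that the HIV-1 protein Vif marks for degradation. Each enzyme carries either a single zinc-binding motif or a pair of them, in which a histidine and a pair of cysteines hold the zinc ion and a glutamate takes part in catalysis.

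The coding DNA of these motifs is shown because it tells which members are alike in these stretches. It does not by itself tell whether reads of the whole genes can be separated. The first motifs of APOBEC3D and APOBEC3G are not printed. The coding DNA was read from the transcript sequences of GENCODE release 29, with GRCh38 positions from its annotation. It is given 5′ to 3′ on the plus strand, with the codons of the histidine, the glutamate and the cysteines in capitals. APOBEC3A, APOBEC3C and APOBEC3H had 1 motif each, in reading frames of 199, 190 and 183 codons. APOBEC3B, APOBEC3D, APOBEC3F and APOBEC3G had 2 motifs each, in reading frames of 382, 386, 373 and 384 codons.
APOBEC3A, chr22:38961420-38961530, and the second motif of APOBEC3B, chr22:38991365-38991475: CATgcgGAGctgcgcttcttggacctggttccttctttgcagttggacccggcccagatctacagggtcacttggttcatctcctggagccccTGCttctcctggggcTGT
First motif of APOBEC3B, chr22:38985833-38985937, and first motif of APOBEC3F, chr22:39044962-39045066: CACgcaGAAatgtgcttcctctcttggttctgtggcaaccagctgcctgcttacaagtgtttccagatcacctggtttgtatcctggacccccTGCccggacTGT
APOBEC3C, chr22:39017787-39017891: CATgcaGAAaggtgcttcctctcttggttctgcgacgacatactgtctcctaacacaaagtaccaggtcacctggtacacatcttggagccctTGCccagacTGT
Second motif of APOBEC3D, chr22:39031715-39031819, and second motif of APOBEC3F, chr22:39052095-39052199: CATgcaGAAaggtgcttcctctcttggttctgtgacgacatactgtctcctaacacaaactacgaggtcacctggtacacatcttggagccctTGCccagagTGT
Second motif of APOBEC3G, chr22:39086312-39086416: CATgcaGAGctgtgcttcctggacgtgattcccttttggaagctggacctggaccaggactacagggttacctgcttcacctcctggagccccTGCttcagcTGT
APOBEC3H, chr22:39101246-39101350: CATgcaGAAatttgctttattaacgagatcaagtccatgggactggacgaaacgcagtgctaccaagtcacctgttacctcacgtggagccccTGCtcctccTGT
The motif of APOBEC3A was identical to the second motif of APOBEC3B at 111 of 111 bases. The first motifs of APOBEC3B and APOBEC3F were identical at 105 of 105 bases, and so were the second motifs of APOBEC3D and APOBEC3F. The APOBEC3C motif matched that last pair at 101 of 105 bases, or 96.2%. The second motif of APOBEC3G was 77.5% identical to that of APOBEC3A, and the APOBEC3H motif was at most 64.8% identical to any other. Each of these stretches lies within 1 coding exon.

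All 7 genes lie on the plus strand of chromosome 22 (GRCh38), within 151 kb from 38952741 to 39104067. Their order is APOBEC3A (ENSG00000128383, 38952741 to 38992778), APOBEC3B (ENSG00000179750, 38982347 to 38992804), APOBEC3C (ENSG00000244509, 39014083 to 39020352), APOBEC3D (ENSG00000243811, 39021113 to 39033276), APOBEC3F (ENSG00000128394, 39040604 to 39053910), APOBEC3G (ENSG00000239713, 39077005 to 39087743) and APOBEC3H (ENSG00000100298, 39097224 to 39104067). The annotated spans of APOBEC3A and APOBEC3B overlap, and 14.8% of the exonic bases of APOBEC3A and 23.3% of those of APOBEC3B lie in exons of other genes. For APOBEC3D this share was 83.2%, almost all of it with AL022318.4, an annotated gene that runs from APOBEC3C through APOBEC3D. APOBEC3F, APOBEC3G and APOBEC3H share no exonic bases with another gene. The sources used here give neither read length nor strand nor the handling of reads that match several genes. Counts of APOBEC3A, APOBEC3B, APOBEC3D, APOBEC3F and, less so, APOBEC3G are therefore less certain than those of APOBEC3C. In APOBEC3C no stretch of 100 bases recurred in another gene. Of the 100-base stretches of APOBEC3F, 8.55% recurred in APOBEC3G, and 5.05% of those of APOBEC3G recurred in APOBEC3F.

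Library totals ran from 12186723 to 15949537 counts. BHLHE22 itself had 98, 92 and 133 counts in the Bhlhe22 libraries and 1, 1 and 1 in the Vector libraries. The cells carried the keratins KRT8, KRT18 and KRT19 and lacked KLK3, as PC-3 cells are known to do. TMPRSS2, another gene of prostate luminal cells, was present at 68.5 ± 6.6 CPM in Bhlhe22 and 161 ± 22 CPM in Vector libraries (SD, n = 3 each). CPM is a gene's count relative to its library's total, scaled by the trimmed mean of M-values (TMM). Of 15945 genes with enough counts to test, 7876 (49.4%) were called at a Benjamini-Hochberg adjusted p under 0.05 in edgeR's quasi-likelihood test, and the groups did not overlap in 60.5%.

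APOBEC3C made up most of the family's RNA in both groups. Per unit of gene length, in the authors' deposited FPKM (fragments relative to gene length and library total), APOBEC3C had 275, 252 and 210 in the Bhlhe22 libraries and 340, 301 and 370 in the Vector libraries. Among the tested genes, 98 had a higher mean FPKM than APOBEC3C in the Bhlhe22 group and 69 in the Vector group. APOBEC3B, at 14.6 ± 1.5 FPKM in Bhlhe22 and 12.8 ± 0.88 FPKM in Vector libraries, came next, followed by APOBEC3G at 6.68 ± 0.65 FPKM in Bhlhe22 and 9.57 ± 1.25 FPKM in Vector libraries (SD, n = 3 each). The remaining members had at most 1.92 FPKM in any library.

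In the Bhlhe22 libraries the order of the FPKM levels was APOBEC3C, APOBEC3B, APOBEC3G, APOBEC3D, APOBEC3A, APOBEC3F and APOBEC3H. APOBEC3D overlapped APOBEC3A there, and APOBEC3A overlapped APOBEC3F, so the order within those pairs is not larger than the spread. In the Vector libraries no neighbours in the order overlapped, and APOBEC3F, at 1.23 ± 0.22 FPKM, stood above APOBEC3A, at 0.753 ± 0.068 FPKM. In the Bhlhe22 libraries those genes had 0.558 ± 0.111 FPKM for APOBEC3F and 0.823 ± 0.193 FPKM for APOBEC3A (SD, n = 3).

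**Figure D1:**
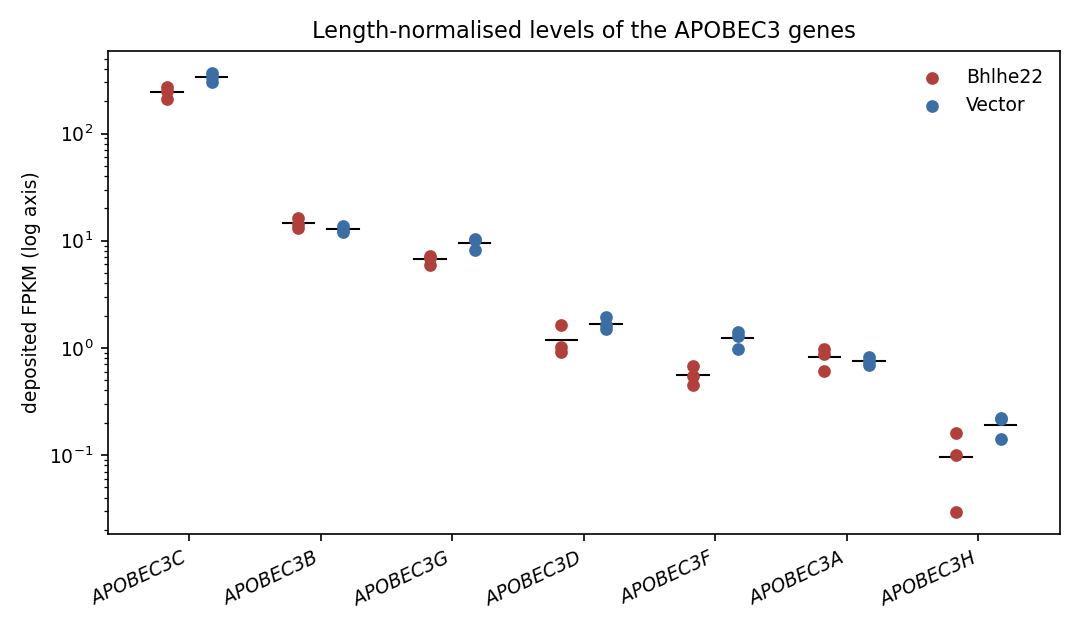
Deposited FPKM of each APOBEC3 gene on a log axis, 1 point per library, with a bar at the mean of each group (n = 3 each). APOBEC3C lies between 210 and 370 FPKM and every other member at or below 16.2 FPKM. APOBEC3F stands above APOBEC3A in the Vector libraries, and these genes overlap in the Bhlhe22 libraries.

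APOBEC3C held 91.1 ± 0.40% of the family's summed FPKM in the Bhlhe22 libraries and 92.8 ± 0.20% in the Vector libraries (SD, n = 3 each). The share of APOBEC3B was 5.42 ± 0.24% in Bhlhe22 and 3.55 ± 0.29% in Vector libraries. These shares rest on the gene lengths behind the deposited FPKM, and with the exonic lengths of GENCODE the share of APOBEC3B was 7.06% in Bhlhe22 and 4.65% in Vector libraries. In both cases APOBEC3B had the larger share in the Bhlhe22 group. Summed over the 7 genes, the family had 1060, 978 and 816 CPM in the Bhlhe22 libraries and 1438, 1309 and 1522 CPM in the Vector libraries. The groups did not overlap in this sum, which is for the most part the count of APOBEC3C.

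Between the groups, 3 of the 6 tested members, APOBEC3C, APOBEC3F and APOBEC3G, were called lower in Bhlhe22 cells, none was called higher, and APOBEC3A, APOBEC3B and APOBEC3D were not called. Over all tested genes 24.3% were called lower and 25.1% higher. The median log2 fold change of the 6 members was -0.63, beside 0.00 over all tested genes, where a negative value means less RNA in the Bhlhe22 libraries. In bulk RNA, fewer cells that express a gene and less RNA per cell cannot be told apart.

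**Figure D2:**
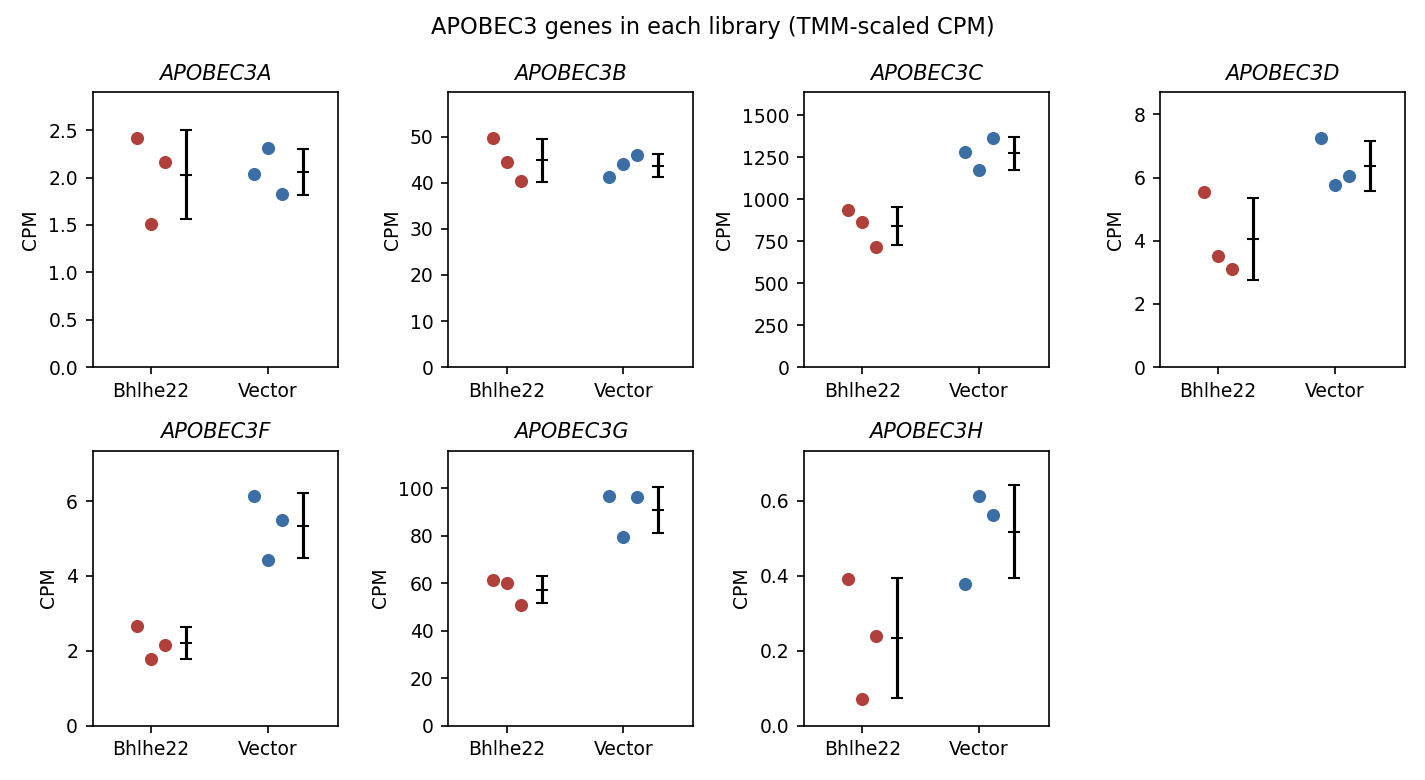
TMM-scaled CPM of the 7 APOBEC3 genes, 1 point per library in replicate order, with mean and SD beside each group (n = 3 each) and a linear axis from 0 in every panel. The groups are apart for APOBEC3C, APOBEC3D, APOBEC3F and APOBEC3G, and overlap for APOBEC3A, APOBEC3B and APOBEC3H.

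APOBEC3A and APOBEC3B, the members studied for mutation in tumours, did not pass the test. APOBEC3B, which works in the nucleus, had 49.7, 44.4 and 40.4 CPM in the Bhlhe22 libraries and 41.1, 44.1 and 45.9 CPM in the Vector libraries. The groups overlapped, and the highest and the lowest of the 6 values were both in Bhlhe22 libraries. Its log2 fold change was 0.04 (SE 0.11, edgeR adjusted p = 0.800), and the 95% interval allows a level between 86.4% and 122% of that in Vector cells.

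APOBEC3A, a single-domain deaminase, was much rarer, with 31, 21 and 36 counts in the Bhlhe22 libraries and 27, 34 and 26 in the Vector libraries. These are 2.03 ± 0.47 CPM and 2.06 ± 0.24 CPM (SD, n = 3 each), and the groups overlapped. The log2 fold change was -0.03 (SE 0.24, edgeR adjusted p = 0.943). At this depth the 95% interval runs from 66.9% to 144% of the Vector level, wider than that of APOBEC3B. With the counts of both overlapping genes summed, the log2 fold change was 0.03 (edgeR adjusted p = 0.811).

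APOBEC3C, a single-domain enzyme known to limit retrotransposition, fell. It had 938, 867 and 717 CPM in the Bhlhe22 libraries and 1284, 1173 and 1366 CPM in the Vector libraries. Every Bhlhe22 library lay below every Vector library, and Bhlhe22 replicate 3 was the lowest. The level in Bhlhe22 cells was 66.0% of that in Vector cells (95% interval 55.0% to 79.2%), a log2 fold change of -0.60 (SE 0.11, edgeR adjusted p = 0.00384). Each library held at least 11953 counts of this gene, so counting error is small beside the spread between libraries.

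APOBEC3G, the member through which Vif was first understood, fell by a like amount. It had 61.3, 60.0 and 50.8 CPM in the Bhlhe22 libraries and 96.7, 79.5 and 96.3 CPM in the Vector libraries. The groups did not overlap, although Vector replicate 2 stood below the other Vector libraries. Its level was 63.1% of that in Vector cells (95% interval 52.4% to 76.0%), with a log2 fold change of -0.66 (SE 0.12, edgeR adjusted p = 0.00270).

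APOBEC3F, an enzyme that like APOBEC3G can be packaged into HIV-1 particles, had the most negative log2 fold change of the 6. It had 34, 25 and 36 counts in the Bhlhe22 libraries, or 2.65, 1.79 and 2.16 CPM. In the Vector libraries it had 81, 65 and 78 counts, or 6.13, 4.42 and 5.49 CPM. The highest Bhlhe22 library lay well below the lowest Vector library. The level was 41.2% of that in Vector cells (95% interval 29.2% to 58.3%), with a log2 fold change of -1.28 (SE 0.22, edgeR adjusted p = 0.00234). The intervals of APOBEC3F, APOBEC3C and APOBEC3G overlap, and the difference between their fold changes was not tested.

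APOBEC3D, the double-domain member between APOBEC3C and APOBEC3F, lay at the edge of the threshold. It had 5.54, 3.52 and 3.12 CPM in the Bhlhe22 libraries and 7.26, 5.78 and 6.06 CPM in the Vector libraries. The groups did not overlap in CPM, but Bhlhe22 replicate 1 came close to the lowest Vector library. In the deposited FPKM, which are not TMM-scaled, they did overlap, at 1.62 in Bhlhe22 replicate 1 and 1.48 in Vector replicate 2. The log2 fold change was -0.66 (SE 0.24, edgeR adjusted p = 0.0508), with a 95% interval from -1.21 to -0.11 before adjustment for the number of genes. Without Bhlhe22 replicate 1 the value was -0.94 and the gene was called (edgeR adjusted p = 0.00856), which makes 4 members called lower. AL022318.4, with which it shares most exons, had 11, 27 and 13 counts in Bhlhe22 and 27, 22 and 24 counts in Vector libraries and was not called. The sum of the pair was called, with a log2 fold change of -0.63 (edgeR adjusted p = 0.0361).

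APOBEC3H, the last gene of the cluster and the one least like the others in its motif, was almost absent. It had 5, 1 and 4 counts in the Bhlhe22 libraries and 5, 9 and 8 in the Vector libraries, too few for the test. The groups overlapped in CPM. Over each group that is 10 counts in Bhlhe22 and 22 in Vector, a ratio of 0.441 after scaling, with an exact 95% interval of 0.186 to 0.971 that covers counting error only.

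**Figure D3:**
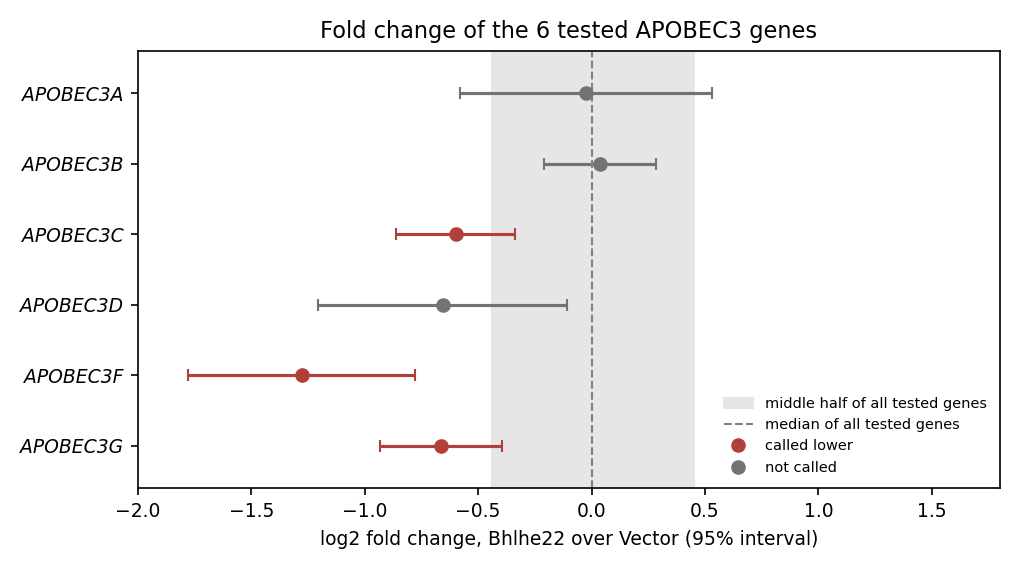
Log2 fold change, Bhlhe22 over Vector, of the 6 tested APOBEC3 genes with 95% intervals from the edgeR fit; the grey band runs from the lower to the upper quartile of all 15945 tested genes, -0.44 to 0.45. Red marks the 3 genes called lower. The intervals of APOBEC3A and APOBEC3B include 0.

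Not overlapping in TMM-scaled CPM, with Bhlhe22 lower, were 4 of the 6 tested members (APOBEC3C, APOBEC3D, APOBEC3F and APOBEC3G), beside 29.9% of all tested genes. To compare members without any scaling of the libraries, the counts of each were divided by those of APOBEC3B in the same library, a denominator chosen with its values known. APOBEC3C had 18.9, 19.5 and 17.7 counts for each APOBEC3B count in the Bhlhe22 libraries and 31.2, 26.6 and 29.8 in the Vector libraries. For APOBEC3G the ratios were 1.23, 1.35 and 1.26 in Bhlhe22 and 2.35, 1.8 and 2.1 in Vector libraries. The ratios of APOBEC3F were 0.0534, 0.0404 and 0.0534 in Bhlhe22 and 0.149, 0.1 and 0.12 in Vector libraries.

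In those ratios every Bhlhe22 library lay below every Vector library for APOBEC3C, APOBEC3D, APOBEC3F and APOBEC3G. The same members were apart in CPM, and the share of all tested genes that separate in such a ratio was not counted. The ratio of APOBEC3A to APOBEC3B overlapped between groups. The ratios are a description and carry no test, since an exact permutation of 3 against 3 libraries cannot give a p below 0.1 and the denominator was not independent of the data.

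Other rows named for the APOBEC family were empty or nearly so. APOBEC3B-AS1, the antisense gene at APOBEC3B, and the pseudogene APOBEC3AP1 had 0 counts in all 6 libraries, as had APOBEC1 and APOBEC4. A count of 0 allows up to 3 counts over a group, or 0.0691 CPM in Bhlhe22 and 0.0712 CPM in Vector libraries, for counting error only. APOBEC2 had 2 counts, both in Vector replicate 2.

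The lists that follow are to be read against the 25.1% of all tested genes called higher and the 24.3% called lower. In the wider list of nucleic acid deaminases 8 of 13 genes were tested, with 3 called higher, 1 lower and 4 not called. The median log2 fold change was -0.08, which turned to 0.0039 without Bhlhe22 replicate 1 and to 0.065 with unscaled library sizes. ADAR, the main adenosine deaminase of double-stranded RNA, had 674 ± 77 CPM in Bhlhe22 and 356 ± 6 CPM in Vector libraries (SD, n = 3 each; log2 fold change 0.92, edgeR adjusted p = 0.000342). The tRNA deaminase genes ADAT1 and ADAT2 rose by 0.79 and 0.66 on the log2 scale. CDADC1, at -0.55, was the one called lower, and it lost its call without Bhlhe22 replicate 1 or without any 1 of the 3 Vector replicates. Nor was any gene of the list called lower with DESeq2 or with unscaled library sizes, while without Bhlhe22 replicate 3 there were 2 lower calls.

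Genes that deal with uracil in DNA, the product of APOBEC3 action, were 18, all tested. Of these 8 were called higher (25.1% over all tested genes), 2 lower (24.3%) and 8 not called, with a median log2 fold change of 0.32. UNG, the main uracil-DNA glycosylase, had 49.6 ± 6.2 CPM in Bhlhe22 and 21.3 ± 2.9 CPM in Vector libraries (SD, n = 3 each; log2 fold change 1.22, edgeR adjusted p = 0.000533). DUT, which keeps dUTP out of DNA, rose by 1.15, the flap nuclease gene FEN1 by 1.18 and PARP1, a sensor of strand breaks, by 0.89 on the log2 scale. The 2 lower calls became 1 without Bhlhe22 replicate 1, Bhlhe22 replicate 2 or Vector replicate 2, and 0 without Vector replicate 1. They were also 0 with unscaled library sizes and 1 with no filter beyond 1 count.

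The host proteins that Vif borrows to degrade APOBEC3 enzymes were 7 tested genes, with 2 called higher and 5 not called, a share near the 25.1% of all tested genes called higher. With unscaled library sizes 4 were called higher. CBFB, the partner that stabilises Vif, had a log2 fold change of 0.64 and ELOC, the elongin C gene, of 0.55, and both were called. The others had 0.29 for the scaffold CUL5, 0.25 for RNF7, 0.22 for UBE2F, -0.01 for ARIH2 and -0.12 for ELOB.

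Regulators linked to APOBEC3 transcription were listed next. In the DREAM complex and B-MYB list, linked to APOBEC3B, 3 of 12 were called higher, 2 lower and 7 not called (median 0.11), which is no more than the 25.1% and 24.3% of all tested genes. MYBL2, which encodes B-MYB, had 175 ± 33 CPM in Bhlhe22 and 40.2 ± 7.6 CPM in Vector libraries (SD, n = 3 each; log2 fold change 2.12, edgeR adjusted p = 0.000261). The pocket protein gene RBL1 rose by 1.87 on the log2 scale, while RBL2 and the chromatin subunit RBBP4 had log2 fold changes of -0.39 and -0.64 and were called. A single lower call, 1 gene, was left without Bhlhe22 replicate 2 or 3, without Vector replicate 1 or 3, or with unscaled library sizes.

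NF-kappaB subunits and their upstream kinases, also linked to APOBEC3B, gave 1 higher and 2 lower calls among 12, with 9 not called, both shares below those of all tested genes (25.1% higher, 24.3% lower). The median was -0.06, and turned to 0.039 without Vector replicate 3 and to 0.085 with unscaled library sizes. BIRC3, an inhibitor of apoptosis protein that acts on this pathway, rose by 0.68 on the log2 scale. NFKBIA, which encodes the inhibitor IkappaB-alpha, had 139 ± 9 CPM in Bhlhe22 and 278 ± 77 CPM in Vector libraries (SD, n = 3 each; 49.9% of the Vector level, edgeR adjusted p = 0.00416). NFKB1, the only gene called among the subunits and kinases themselves, had a log2 fold change of -0.35. The higher calls became 2 without Bhlhe22 replicate 1 or Vector replicate 1, and 3 with unscaled library sizes. The lower calls became 1 without Bhlhe22 replicate 1 or 2, without Vector replicate 1 or 2, or with unscaled library sizes.

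Interferon signal transducers gave 5 higher, 1 lower and 6 uncalled genes among 12 (median 0.13), beside 25.1% higher and 24.3% lower over all tested genes. IRF7, a transcription factor that drives interferon genes, had 71.7 ± 3.2 CPM in Bhlhe22 and 19.8 ± 1.0 CPM in Vector libraries (SD, n = 3 each; log2 fold change 1.86, edgeR adjusted p = 2.27e-05). STAT2 rose by 0.34 on the log2 scale, and the receptor chain gene IFNGR2 had -1.27 and was called lower. The higher calls became 3 without Bhlhe22 replicate 1 or 2, or without Vector replicate 1 or 3, and 7 with unscaled library sizes.

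Other retroviral restriction factors were for the most part higher where APOBEC3C, APOBEC3F and APOBEC3G were lower. Of 16 genes, all tested, 12 were called higher, 2 lower and 2 not called, beside 25.1% higher and 24.3% lower over all tested genes. The median log2 fold change was 1.08. BST2, the virion tether, had 7.51, MX2, a capsid-binding GTPase, 3.64, HERC5, the ISG15 ligase, 3.31, and IFI16, a DNA sensor, 3.24, all called. The lower ones, SERINC3 at -0.47 and SERINC5 at -1.81, named after their values were seen, encode membrane proteins that reduce virion infectivity.

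**Figure D4:**
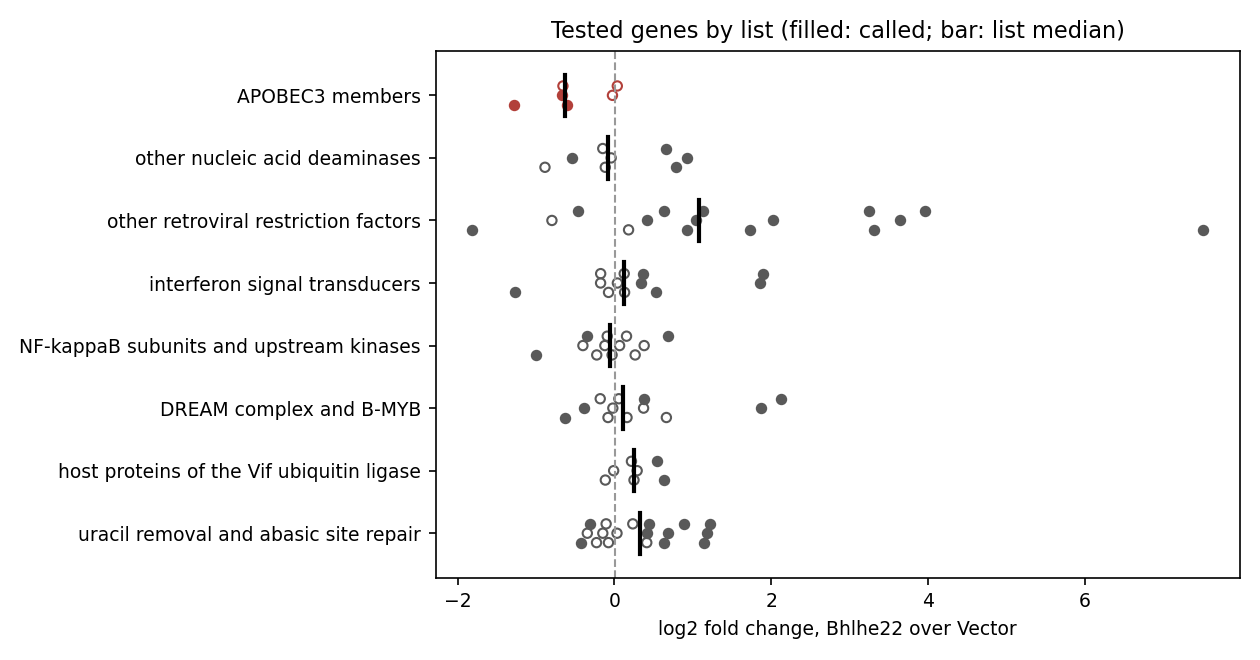
Log2 fold changes, Bhlhe22 over Vector, of the tested genes of each list, 1 point per gene, filled where called, with a black bar at the list's median; points are spread vertically for legibility only. The median of the APOBEC3 members is -0.63 and that of the other restriction factors 1.08, with BST2 at 7.51 on the far right.

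The genes next to the cluster were also examined. Within 500 kb of the cluster's ends lie 46 other genes, of which 23 were tested: 13 were called lower, 1 higher and 9 not called, with a median log2 fold change of -0.52. The share of lower calls is to be read against 24.3% over all tested genes. KDELR3, a retrieval receptor of the endoplasmic reticulum, had 36.2 ± 3.5 CPM in Bhlhe22 and 112 ± 7 CPM in Vector libraries (SD, n = 3 each; log2 fold change -1.62, edgeR adjusted p = 5.85e-05). The ribosomal protein gene RPL3 had -0.94, the RNA helicase gene DDX17 -0.55 and ATF4, a transcription factor of the stress response, -0.83, all called.

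TOMM22, of the mitochondrial import channel, was the one neighbour called higher, at 0.43. The lowest value in the window, -2.74, belonged to AL031590.1, which had 0.214 ± 0.085 CPM in Bhlhe22 and 1.43 ± 0.50 CPM in Vector libraries (SD, n = 3 each). Both were named after their values were seen. Leaving out any 1 library left 11 to 12 lower calls, and without Vector replicate 2 there were 2 higher calls. The median of the neighbours was -0.40 without Bhlhe22 replicate 1 and -0.37 without Bhlhe22 replicate 3. With unscaled library sizes it was -0.37, with 10 lower and 2 higher calls. Gene copy number was not measured in these libraries.

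**Figure D5:**
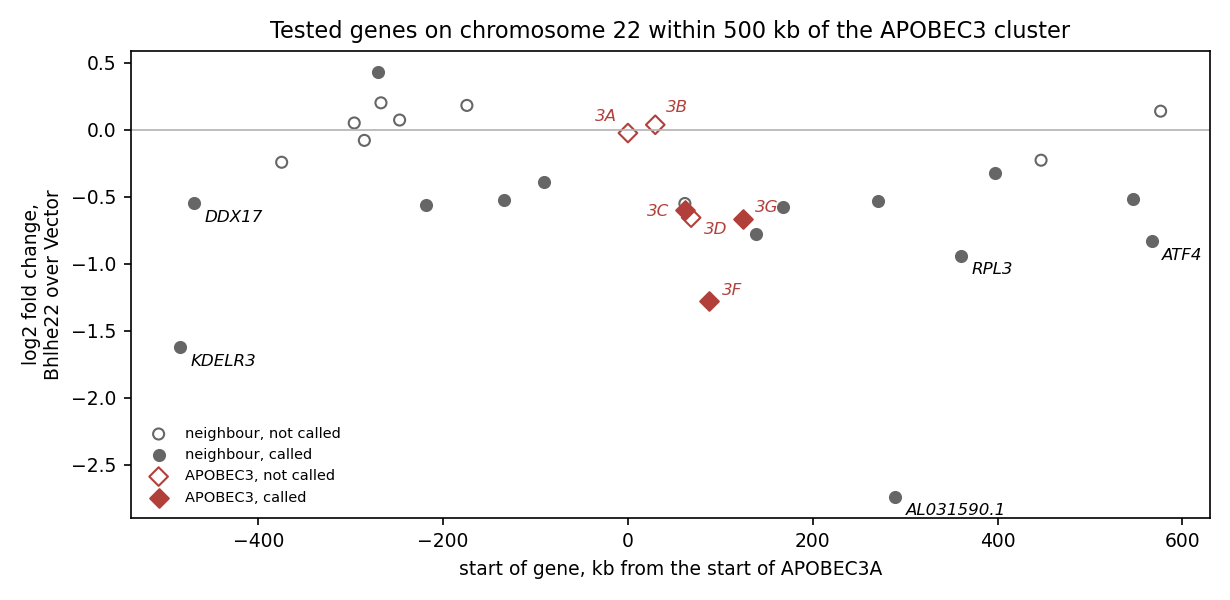
Log2 fold change, Bhlhe22 over Vector, of tested genes within 500 kb of the APOBEC3 cluster against the distance of each gene's start from that of APOBEC3A, in kb. Grey circles are neighbours and red diamonds APOBEC3 genes, filled where called. Of the 23 neighbours 13 are called lower and 1, TOMM22 at 0.43, higher.

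Since APOBEC3 genes are typical of leukocytes, markers of other cells were checked. In a list of 14 blood cell genes, 13 of leukocytes and HBB of erythroid cells, 8 had no count in any library, CD3E, TYROBP and HBB among them, and 1, CD14, was tested and called lower (log2 fold change -2.33, edgeR adjusted p = 0.000818). The list summed to 0.718 to 1.38 CPM in Bhlhe22 and 2.72 to 3.66 CPM in Vector libraries. Fibroblast and osteoblast markers summed to 50.5 to 53.2 CPM in Bhlhe22 and 70.2 to 80.6 CPM in Vector libraries, for the most part COL1A1. Of the 7 genes in that list 3 were tested: the collagen genes COL1A1 and COL3A1 were called lower, at -0.47 and -3.04 on the log2 scale, and LUM, the lumican gene, was called higher at 2.16. DCN had 3, 0 and 2 counts in the Bhlhe22 libraries and 0 in each Vector library. Both sums were lower in the Bhlhe22 libraries, as were APOBEC3C, APOBEC3F and APOBEC3G, although the genes of neither list all moved one way. In the Vector libraries the blood cell sum was for the most part CD14. PTPRC had 2, 0 and 1 counts in the Bhlhe22 libraries and 0 in each Vector library. ITGAM had 8, 2 and 11 counts in Bhlhe22 and 6, 3 and 13 in Vector libraries. PTPRC and ITGAM were named after their values were seen. The part of these lists in the result was not tested.

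The list of genes that mark PC-3 cells, VIM of mesenchymal cells included, summed to 2926 to 2954 CPM in Bhlhe22 and 2050 to 2240 CPM in Vector libraries, with 4 of 7 called higher, 2 lower and 1 not called. KRT7 had 588 ± 38 CPM in Bhlhe22 and 204 ± 14 CPM in Vector libraries, and VIM had 1164 ± 98 CPM in Bhlhe22 and 789 ± 41 CPM in Vector libraries (SD, n = 3 each). EPCAM was also called higher. KRT8 and KRT18 were called lower, at -0.32 and -0.38 on the log2 scale.

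Genes with the most similar profile were sought for APOBEC3C, the member with the most counts, and for APOBEC3F. The measure was the Euclidean distance between log2 CPM profiles over the 6 libraries, each centred on its Vector mean. Nearest to APOBEC3C were KMT5C, a histone methyltransferase gene, at 0.0646, the collagen chain gene COL4A5 at 0.105 and FBXL8, an F-box protein gene, at 0.119. APOBEC3F was nearest to MAFIP at 0.297, SCART1 at 0.312 and RCN1, a calcium-binding protein of the endoplasmic reticulum, at 0.322.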

How the data were processed

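Per the submitters' processing notes, CASAVA 1.8, HISAT2 2.1.0, StringTie 1.3.4b and edgeR were used on GRCh38 (hg38); the sources used here give no roles or options. Per the labels' protocols, RNA was isolated with TRIzol and libraries made with an NEBNext Ultra kit. The authors deposited 1 table of whole-number counts per gene and FPKM values; each FPKM follows from its count and 1 length per gene, within 0.1%. Columns headed as control were read as Vector libraries.

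The counts were tested with edgeR 4.0.16 (R 4.3.3): filterByExpr, TMM, quasi-likelihood test, 2-sided, Benjamini-Hochberg over 15945 genes. These steps were first tested on simulated counts in which a small part of the genes was changed, in either direction. That check does not cover a difference as broad as the one in these data. SE is the log2 fold change over the square root of F. FPKM served only for levels between genes. Alternatives were other scalings and filters, DESeq2 1.42.0, limma-voom (limma 3.58.1), a replicate block, leaving out each library and, after the data were seen, sums of overlapping or near-identical members and GENCODE lengths.

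Members and lists were chosen with earlier results of these data known. Named genes are all members and rows named like them, up to 4 called genes with the smallest p per list or window (all genes in lists of 7 or fewer), and the 3 nearest profiles of each of 2 members; some genes of the lists are counted but not reported here by name.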

Additional observations from a re-analysis of the deposited data

How the results depend on the processing

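APOBEC3C, APOBEC3F and APOBEC3G were called lower under each of 13 alternatives for the fit. The log2 fold changes were -0.69 to -0.46 for APOBEC3C and -0.75 to -0.52 for APOBEC3G. For APOBEC3F they were -1.42 to -1.15 on leaving out 1 library and -1.13 with unscaled library sizes. With its counts summed with those of APOBEC3D, the value was smaller in size, at -0.91 (edgeR adjusted p = 0.00852). The largest edgeR adjusted p was 0.0163, 0.0109 and 0.0135 for APOBEC3C, APOBEC3F and APOBEC3G. No member was called higher in any of the 13 alternatives. APOBEC3D was called with DESeq2's size factors in edgeR (-0.66, adjusted p = 0.0481), limma-voom (-0.70, 0.0378), no filter (-0.64, 0.0480), summed with AL022318.4 (-0.63, 0.0361) and summed with APOBEC3F (-0.91, 0.00852). It was not called with DESeq2 (adjusted p = 0.0596), with a filter of 1 CPM in 3 libraries (0.0501) or with unscaled library sizes (-0.51, 0.111). Leaving out 1 library gave -0.94 to -0.49, and apart from the fit without Bhlhe22 replicate 1 the edgeR adjusted p was 0.0740 to 0.152. APOBEC3A turned to 0.12 with unscaled library sizes and 0.034 summed with APOBEC3B, and ranged from -0.16 to 0.15 on leaving out 1 library, and APOBEC3B from -0.043 to 0.11. Neither was called there, and the cause was not tested.

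The labels do not pair the replicate numbers, and same-numbered libraries did not deviate together (r = 0.00538, -0.0267 and 0.0105). With the replicate block, edgeR gave log2 fold changes of -0.61 for APOBEC3C (adjusted p = 0.0106), -1.28 for APOBEC3F (0.00394), -0.66 for APOBEC3G (0.00780) and -0.68 for APOBEC3D (0.0302), which was then called. In the lists the block left 0 lower calls among the deaminases, 1 in the DREAM complex list and 1 in the NF-kappaB list, and 4 higher calls among interferon transducers.

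Unscaled library sizes moved the median of all genes to 0.15 and gave 5128 higher and 2890 lower calls, beside 3996 and 3880 with TMM. Depth limits what can be said of APOBEC3A and APOBEC3H. APOBEC3F, with 25 to 36 counts in the Bhlhe22 libraries, and APOBEC3D, with 49 to 71, were also thinly counted. Reads that match several genes may limit APOBEC3A, APOBEC3B, APOBEC3D, APOBEC3F and, less so, APOBEC3G. The counts of APOBEC3F and APOBEC3G, which share some stretches, were not summed.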
